A study of Mus musculus with 2 samples.

Results

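The 10 genes described here encode the first enzymes that break down the branched-chain amino acids leucine, isoleucine and valine: Bcat1, Bcat2, Bckdha, Bckdhb, Dbt, Dld, Ivd, Mccc1, Mccc2 and Hibadh. They were chosen by name for their place in the pathway, with earlier results of these data known. All 10 are among the 30649 gene names of the deposited table. Brown adipose tissue (BAT), the heat-producing fat between the shoulder blades, was taken from Taf7l KO mice and from wild-type (WT) mice on the C57BL/6 background. Taf7l encodes TAF7L, a paralog of the TFIID subunit TAF7. RNA was extracted from 6 mice of each genotype, pooled within the genotype and made into 1 polyA mRNA-seq library, so the data hold 1 Taf7l KO library and 1 WT library. The labels give both pools an age of 1 month in one field, and the column headers mark both as 1m. Another field of the labels names 3 months for the Taf7l KO pool. If that field holds, a difference in age cannot be told apart from one in genotype. With 1 library per genotype there is no replicate check, no difference could be tested between genotypes, and no SD or p is given.

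In the breakdown of these amino acids a transaminase (BCAT1 in the cytosol, BCAT2 in mitochondria) first moves the amino group to 2-oxoglutarate and leaves a branched-chain 2-oxoacid. The branched-chain 2-oxoacid dehydrogenase complex (BCKDH) of the mitochondrial matrix then splits off carbon dioxide and joins the remainder to coenzyme A, a step that cannot be reversed. The products enter separate arms for leucine, isoleucine and valine, which end in acetyl-CoA, acetoacetate or succinyl-CoA and pass electrons to the respiratory chain. Brown fat is known for taking up and oxidising branched-chain amino acids when it makes heat. Levels below are FPKM, which counts fragments against transcript length and against the mapped total of the library, so that the levels of different genes can be set side by side. The FPKM of the transcript rows of a gene were summed, and a fold is the Taf7l KO level over the WT level. Genes at 1 FPKM or more in either library were compared, which were 12171 genes and 9 of the 10 breakdown genes. Log2 ratios are of FPKM with 0.1 added to both levels. The interval given with a fold is a 95% exact binomial interval from reads estimated back from FPKM. It covers counting error only, and says nothing of how far pools of mice differ.

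Most breakdown genes were lower in Taf7l KO BAT than in WT BAT, by small folds. Of the 9 compared, 8 were lower (7 after a correction for GC content and length, with Bckdhb, Dbt and Ivd changing sign) and 1, Ivd, was higher, against 49.2% of all genes compared lower by any amount and 50.8% higher. Their median log2 ratio was -0.39, against 0.010 for all genes compared and -0.067 for the 4924 genes at 10 FPKM or more. The summed level of the 10 genes was 1175 FPKM in Taf7l KO BAT and 1643 FPKM in WT BAT, a fold of 0.715. Most of both sums was Bckdha, Dld and Hibadh, which also had the lowest folds. At a log2 ratio of 0.32 or more either way, 5 genes were lower (Bckdha, Dld, Mccc1, Mccc2 and Hibadh, against 26.5% of all genes) and 0 were higher (29.6% of all genes). At 1.5-fold or more, Dld alone was lower (12.7% of all genes) and 0 were higher (16.5%). At 3-fold or more, 0 breakdown genes were lower (0.403% of all genes) and 0 were higher (2.05%).

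Some facts of both libraries bear on every value. All 10 skeletal muscle markers were higher by 3-fold or more in Taf7l KO BAT, with a summed level of 1869 FPKM in Taf7l KO BAT and 108 FPKM in WT BAT. Acta1, skeletal muscle actin, was at 348 FPKM in Taf7l KO BAT and 9.92 FPKM in WT BAT, and Ckm, muscle creatine kinase, at 195 FPKM and 14.5 FPKM. Of the 7 brown adipocyte markers 5 were at least 1.5-fold lower, and their sum was 4077 FPKM in Taf7l KO BAT and 8714 FPKM in WT BAT. Ucp1, the heat-producing uncoupling protein, was at 1639 FPKM in Taf7l KO BAT and 3720 FPKM in WT BAT. Of 6 general adipocyte markers 4 were higher, with a median log2 ratio of 0.24, while their sum was 14693 FPKM in Taf7l KO BAT and 23434 FPKM in WT BAT, most of it Fabp4, at 10713 FPKM and 19657 FPKM. Adipoq, made by all adipocytes, was at 968 FPKM in Taf7l KO BAT and 1227 FPKM in WT BAT. No marker of these cell types was at 0 in either library, the part of these shifts in the breakdown genes was not tested, and in bulk RNA fewer cells of a type and less RNA per cell cannot be told apart. Log2 ratios also ran with GC content, with a median of -0.33 in the 25% of genes with the lowest GC content and 0.36 in the 25% with the highest, so log2 ratios are also given after a correction for GC content and transcript length (corrected). The depth estimated from the FPKM was 78350496 mapped reads for Taf7l KO and 25880852 for WT. Taf7l itself was at 0.0073 FPKM in Taf7l KO BAT and 0.022 FPKM in WT BAT, about 1 read in each, too few to check the labels.

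TAF7L belongs to the machinery that reads promoters, so the promoters of 4 genes are shown: Dld and Hibadh, with the lowest folds, Bckdha, the BCKDH subunit with the highest level, and Ivd, the gene higher in Taf7l KO BAT. Each is a RefSeq window of 250 bases before to 50 bases after the start on GRCm38.p6, read on the strand of the gene: Dld at chr12:31351422-31351721 (minus), Hibadh at chr6:52640251-52640550 (minus), Bckdha at chr7:25658712-25659011 (minus) and Ivd at chr2:118861744-118862043 (plus). Capitals mark matches, on either strand, to the TATA box TATAAA, the CCAAT box CCAAT, the GC box GGGCGG, the cyclic AMP response motif TGACG, the NRF1 motif (GCGC, A, any base, GCGC), the ERR motif AAGGTCA and the direct repeat of AGGTCA with 1 base between its copies, which PPAR and RXR bind.
Dld: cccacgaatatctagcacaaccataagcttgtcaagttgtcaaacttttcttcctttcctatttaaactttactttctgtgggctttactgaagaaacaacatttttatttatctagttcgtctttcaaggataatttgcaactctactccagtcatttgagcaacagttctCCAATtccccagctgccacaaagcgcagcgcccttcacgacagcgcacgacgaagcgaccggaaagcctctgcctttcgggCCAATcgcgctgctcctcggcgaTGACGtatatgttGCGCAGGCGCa
Hibadh: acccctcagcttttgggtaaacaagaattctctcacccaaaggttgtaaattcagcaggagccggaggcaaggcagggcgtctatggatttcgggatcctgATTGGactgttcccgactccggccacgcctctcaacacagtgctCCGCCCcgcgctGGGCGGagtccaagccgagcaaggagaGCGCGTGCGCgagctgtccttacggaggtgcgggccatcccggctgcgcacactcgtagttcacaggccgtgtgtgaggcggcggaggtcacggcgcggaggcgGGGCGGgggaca
Bckdha: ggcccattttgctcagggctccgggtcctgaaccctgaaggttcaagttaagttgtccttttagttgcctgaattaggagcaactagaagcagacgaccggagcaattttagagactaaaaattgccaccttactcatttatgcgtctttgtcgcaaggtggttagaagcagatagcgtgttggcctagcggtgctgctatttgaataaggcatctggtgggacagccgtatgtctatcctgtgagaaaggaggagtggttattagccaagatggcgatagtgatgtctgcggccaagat
Ivd: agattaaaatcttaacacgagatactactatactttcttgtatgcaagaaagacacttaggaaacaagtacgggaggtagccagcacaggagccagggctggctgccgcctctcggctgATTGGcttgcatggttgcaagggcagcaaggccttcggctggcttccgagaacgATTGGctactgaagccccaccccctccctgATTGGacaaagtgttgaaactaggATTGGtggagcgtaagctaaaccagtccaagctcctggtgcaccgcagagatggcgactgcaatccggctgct

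The window of Dld held 2 CCAAT boxes, 1 cyclic AMP response motif and 1 NRF1 motif. That of Hibadh held 1 CCAAT box, 3 GC boxes and 1 NRF1 motif. Bckdha had no match to any of the 7 motifs, and Ivd had 4 CCAAT boxes and no other match. NRF1 is a factor known for binding promoters of nuclear genes for mitochondrial proteins, and its motif is in 4.6% of the 32851 RefSeq windows of this length. The CCAAT box is in 37.4% of these windows, the GC box in 35.7%, the motif TGACG in 20.8% and TATAAA in 13.6%. Of the breakdown genes 9 had a window, 12 windows in all, and none of these held AAGGTCA (4.72% of all windows) or the direct repeat (0.0396%). TATAAA was found in 1 of the 12, a window of Bcat1, at -219 from the start. The other windows with CCAAT boxes were those of Mccc1 and Mccc2, with 3 each, of Bckdhb, with 2 in its first window and 1 in its second, and of Bcat1, with 1. These are matches of letters only, and binding was not measured in the data used here. Bcat2 had no match in either of its windows. The lower genes thus included some with several motifs (Dld, Hibadh) and some with none (Bckdha, Bcat2).

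**Figure D1:**
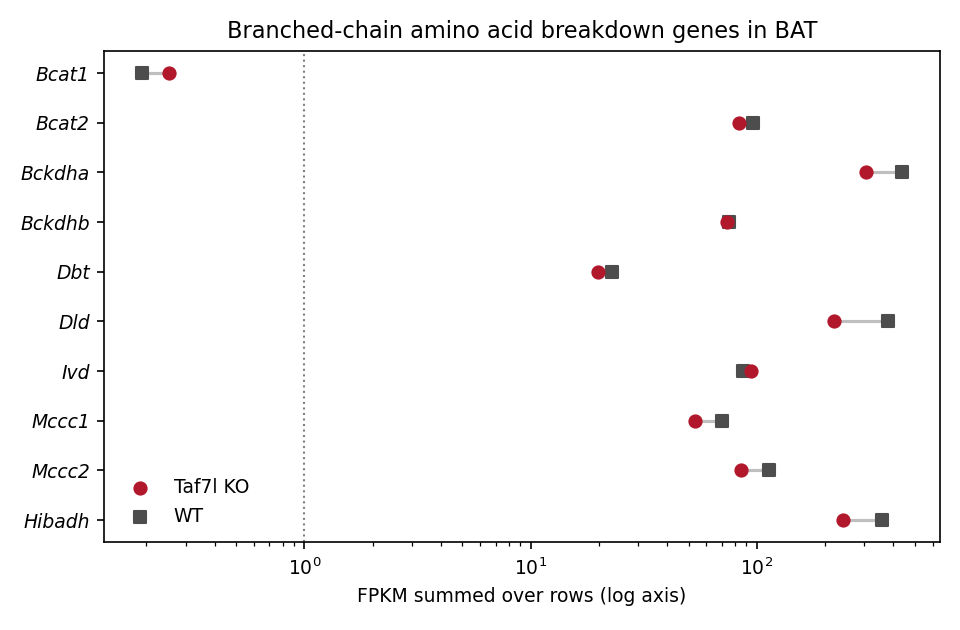
FPKM of the 10 breakdown genes in BAT (log axis), with Taf7l KO as red circles and WT as grey squares, 1 pooled library each. The dotted line is 1 FPKM, Bcat1 lies below it in both libraries, and the other 9 genes lie between 19.97 and 439 FPKM.

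Levels spanned a wide range within a library. In Taf7l KO BAT the order was Bckdha at 304 FPKM, Hibadh at 241, Dld at 219, Ivd at 94.9, Mccc2 at 85.6, Bcat2 at 83.3, Bckdhb at 73.8, Mccc1 at 53.6, Dbt at 19.97 and Bcat1 at 0.252 FPKM. In WT BAT it was Bckdha at 439 FPKM, Dld at 379, Hibadh at 359, Mccc2 at 113, Bcat2 at 96.3, Ivd at 87.3, Bckdhb at 75.8, Mccc1 at 70.1, Dbt at 22.9 and Bcat1 at 0.192 FPKM. The same 3 genes, Bckdha, Dld and Hibadh, stood at the top of both orders, and Dbt and Bcat1 at the bottom. Ivd stood above Mccc2 and Bcat2 in Taf7l KO BAT and below both in WT BAT. Without replicate libraries it cannot be said which neighbours differ beyond the spread between pools.

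Of the transaminase genes of the first step, the mitochondrial one held nearly all of the transcript. Bcat2 (chr7:45570153-45589711, plus strand, GRCm38) was at 83.3 FPKM in Taf7l KO BAT and 96.3 FPKM in WT BAT, a fold of 0.865 (0.831 to 0.901) and a log2 ratio of -0.21 (corrected -0.34). Of its 2 transcript rows, one held 85.2% of the FPKM in Taf7l KO BAT and 85.8% in WT BAT, at 71.0 FPKM and 82.6 FPKM. The other was at 12.4 FPKM in Taf7l KO BAT and 13.7 FPKM in WT BAT, so both rows were lower in Taf7l KO BAT and the split between them was nearly equal in the libraries. Bcat1 (chr6:144993835-145076184, minus strand), the cytosolic transaminase gene, was at 0.252 FPKM in Taf7l KO BAT and 0.192 FPKM in WT BAT, from an estimated 28 reads and 7 reads. Its fold of 1.31 has an interval of 0.564 to 3.58, which includes 1, so no difference of Bcat1 was detectable at this depth. Bcat2 was 331 times the level of Bcat1 in Taf7l KO BAT and 502 times in WT BAT, or 445 and 782 times with the highest row of each.

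Within BCKDH the subunit genes differed in both level and fold. BCKDHA and BCKDHB form E1, the decarboxylase, DBT is E2, the core that carries the acyl group on lipoate, and DLD is E3, the flavoprotein that reoxidises the lipoate and passes the electrons to NAD. All 4 genes were lower in Taf7l KO BAT as deposited (49.2% of all genes compared), with a median log2 ratio of -0.36. The interval of Bckdhb includes 1. After the correction for GC content and length Bckdhb and Dbt were higher, and 47.0% of all genes were below 0. As deposited, the folds of the 4 genes ran over a range that counting error does not cover.

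Bckdha (chr7:25629946-25658981, minus strand) was at 304 FPKM in Taf7l KO BAT and 439 FPKM in WT BAT, a fold of 0.692 (0.680 to 0.705) and a log2 ratio of -0.53. Its partner in E1, Bckdhb (chr9:83925145-84124240, plus strand), was at 73.8 FPKM in Taf7l KO BAT and 75.8 FPKM in WT BAT, a fold of 0.973 (0.929 to 1.02). Its interval includes 1, and its 2 rows were near each other in both libraries, at 36.5 and 37.3 FPKM in Taf7l KO BAT and 37.0 and 38.8 FPKM in WT BAT. The genes of the 2 E1 chains therefore stood apart in fold, and Bckdha was 4.12 times the level of Bckdhb in Taf7l KO BAT and 5.79 times in WT BAT. With the highest row of each gene in place of the sum, this ratio was 8.15 in Taf7l KO BAT and 11.3 in WT BAT. Bckdha has 1 row and Bckdhb 2 of nearly equal level, so the size of the ratio depends on how rows are combined. Bckdha shares 1171 bp of its exons with B3gnt8 on the opposite strand in the GENCODE M21 annotation, and counting by strand is not stated.

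Dbt (chr3:116513070-116549981, plus strand) was the lowest of the 4, at 19.97 FPKM in Taf7l KO BAT and 22.9 FPKM in WT BAT, a fold of 0.873 (0.828 to 0.922). Bckdhb was at a log2 ratio of -0.039 as deposited and 0.055 after the correction for GC content and length. That of Dbt was -0.19 as deposited and 0.23 after the correction, so the direction of both turns with it. Dld (chr12:31331277-31351453, minus strand) was at 219 FPKM in Taf7l KO BAT and 379 FPKM in WT BAT, a fold of 0.577 (0.567 to 0.587) from an estimated 35026 reads and 20057 reads. It had the lowest fold of the 10 genes. The GC content of Dld is low, 40.6% against a median of 50.9% for all genes with a value, and the correction brought its log2 ratio from -0.79 as deposited to -0.29, under 1.5-fold. Set against Dbt within a library, Dld was 11.0 times as high in Taf7l KO BAT and 16.6 times in WT BAT, and Bckdha was 15.2 times as high in Taf7l KO BAT and 19.2 times in WT BAT. Bckdhb was 3.69 times the level of Dbt in Taf7l KO BAT and 3.32 times in WT BAT, or 1.87 and 1.70 times with the highest row of each.

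**Figure D2:**
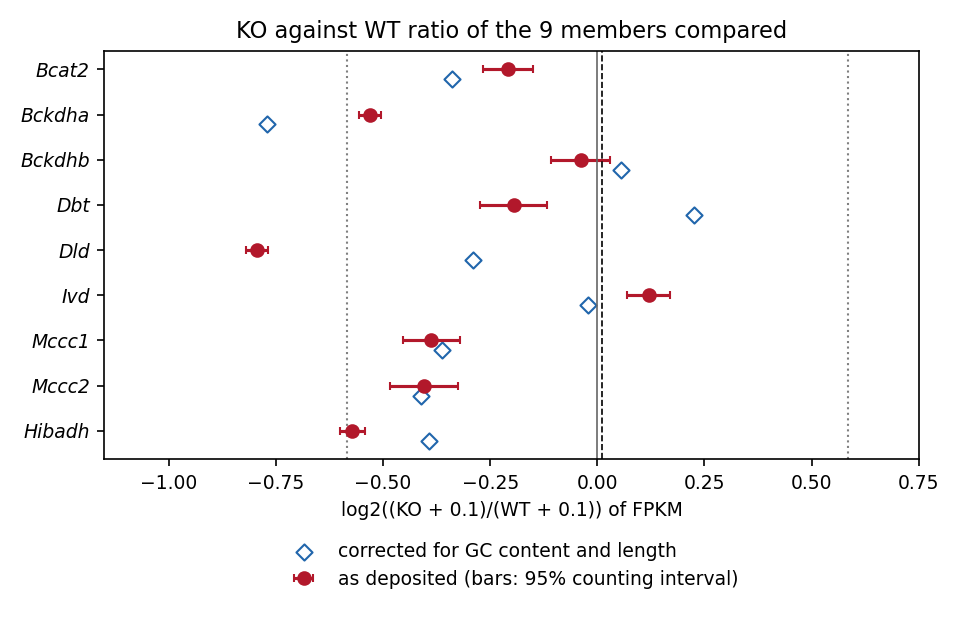
Log2 ratio of Taf7l KO over WT FPKM for the 9 genes compared, as red points with 95% counting intervals, with the values corrected for GC content and length as blue diamonds. Dotted lines mark 1.5-fold either way, the dashed line the median of all genes at 0.010, and Dld is past the line as deposited at -0.79 while Bckdha is past it after the correction at -0.77.

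In the leucine arm the first gene went the other way from the next pair. Ivd (chr2:118861954-118882909, plus strand), which encodes isovaleryl-CoA dehydrogenase, was at 94.9 FPKM in Taf7l KO BAT and 87.3 FPKM in WT BAT, a fold of 1.09 (1.05 to 1.12). After the correction the log2 ratio of Ivd was -0.021, against 0.12 as deposited. MCCC1 and MCCC2 are the biotin-carrying and the carboxyl-transferring subunit of methylcrotonyl-CoA carboxylase, the enzyme that follows it in the arm. Mccc1 (chr3:35959312-36000678, minus strand) was at 53.6 FPKM in Taf7l KO BAT and 70.1 FPKM in WT BAT, a fold of 0.764 (0.730 to 0.801). Mccc2 (chr13:99948530-100015639, minus strand) was at 85.6 FPKM in Taf7l KO BAT and 113 FPKM in WT BAT, a fold of 0.756 (0.715 to 0.799).

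The genes of the carboxylase thus had nearly equal folds, with intervals that overlap, and their ratio within a library, Mccc1 over Mccc2, was 0.626 in Taf7l KO BAT and 0.619 in WT BAT. The 3 rows of Mccc1 were at 17.9, 19.6 and 16.0 FPKM in Taf7l KO BAT and at 25.2, 22.6 and 22.3 FPKM in WT BAT. The 4 rows of Mccc2 were at 28.6, 16.5, 17.9 and 22.6 FPKM in Taf7l KO BAT and at 37.8, 21.5, 23.6 and 30.5 FPKM in WT BAT. Every row of both genes was lower in Taf7l KO BAT, but rows of a gene can share reads and are not separate measures. The correction moved them little, to log2 ratios of -0.36 for Mccc1 and -0.41 for Mccc2, against -0.39 and -0.40 as deposited.

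Hibadh (chr6:52546228-52640389, minus strand) stands for the valine arm, where 3-hydroxyisobutyrate dehydrogenase oxidises 3-hydroxyisobutyrate, an intermediate that can leave the cell. Hibadh was at 241 FPKM in Taf7l KO BAT and 359 FPKM in WT BAT, a fold of 0.673 (0.659 to 0.687). Its log2 ratio of -0.57 lay just inside the 1.5-fold threshold, and the corrected ratio was -0.39.

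Of the 10 genes, 5 share exon sequence with another annotated gene: Bcat1, Bcat2, Bckdha and Mccc1 with genes on the opposite strand and Hibadh with a small nucleolar RNA on its own strand. Reads of such stretches cannot be assigned to one strand with counts that ignore it. B3gnt8, which shares exons with Bckdha, was at 0.876 FPKM in Taf7l KO BAT and 0.703 FPKM in WT BAT, far below Bckdha. The other 5, Bckdhb, Dbt, Dld, Ivd and Mccc2, share none.

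Genes listed for the later steps of the 3 arms, and for turning propionyl-CoA into succinyl-CoA, were mostly lower as well. Of 19 such genes 18 were compared and 17 were lower (49.2% of all genes), with a median log2 ratio of -0.49. Among them are Hadha, Hadhb and Acaa2, known as genes of fatty acid oxidation. At the 1.5-fold threshold 5 were lower (12.7% of all genes) and 0 higher (16.5%). Together with the core genes this makes 25 of 27 lower and 6 at least 1.5-fold lower, with a median of -0.45. After the correction for GC content and length the median of the later steps was -0.27, and 16 of 18 were below 0. The 3 then at least 1.5-fold lower (6.88% of all genes) were Echs1, Hadha and Acaa2, which serve fatty acid oxidation. The core genes were at -0.34 with 7 of 9 below 0, against 47.0% of all genes below 0.

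In the leucine arm Auh, which encodes the hydratase that follows the carboxylase, was at 66.0 FPKM in Taf7l KO BAT and 84.6 FPKM in WT BAT (log2 ratio -0.36, corrected -0.28). Acat1 and Oxct1 handle the acetoacetate, and Acat1 also serves isoleucine. With Auh, all 3 later genes described for this arm were lower (49.2% of all genes compared), with a median of -0.36. Ivd was the one leucine arm gene described that was higher as deposited. All 6 genes listed for the isoleucine arm were lower (49.2% of all genes compared), with a median of -0.51. Echs1, the short-chain enoyl-CoA hydratase that valine and fatty acids also use, was at 466 FPKM in Taf7l KO BAT and 835 FPKM in WT BAT (log2 ratio -0.84, corrected -0.77). Acaa2, a thiolase, was at 1173 FPKM in Taf7l KO BAT and 1855 FPKM in WT BAT (log2 ratio -0.66, corrected -0.66). Of these 6, Acaa2, Hadha and Hadhb are known as genes of fatty acid oxidation, and Echs1 serves it too. The median of this list and the counts of later steps therefore do not belong to this pathway alone.

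Beyond Hibadh in the valine arm, Aldh6a1, the methylmalonate semialdehyde dehydrogenase, was at 109 FPKM in Taf7l KO BAT and 179 FPKM in WT BAT (log2 ratio -0.72, corrected -0.36). All 3 genes compared there were lower (49.2% of all genes), with a median of -0.43, and Abat was below 1 FPKM in both libraries. On the propionyl-CoA route, Mcee, the methylmalonyl-CoA epimerase, was at 124 FPKM in Taf7l KO BAT and 210 FPKM in WT BAT (log2 ratio -0.76, corrected -0.48). Mmaa, which helps methylmalonyl-CoA mutase to keep its cobalamin, was at 12.8 FPKM in Taf7l KO BAT and 20.6 FPKM in WT BAT (log2 ratio -0.68, corrected -0.26). Aldh6a1, Mcee and Mmaa were all under 1.5-fold after the correction. Of the 6 genes of the propionyl-CoA route 5 were lower (49.2% of all genes). After the correction 4 were lower (47.0% of all genes), with Pcca at 0.11. Mmab, which makes the adenosyl form of cobalamin, was the one of the 18 later genes that was higher as deposited. It was at 15.5 FPKM in Taf7l KO BAT and 11.4 FPKM in WT BAT. The products of the electron transfer genes Etfa, Etfb and Etfdh carry electrons from IVD and other acyl-CoA dehydrogenases to the respiratory chain. All 3 genes were lower (49.2% of all genes), with a median of -0.33 and none at least 1.5-fold (12.7% of all genes). After the correction Etfa was at 0.0081.

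**Figure D3:**
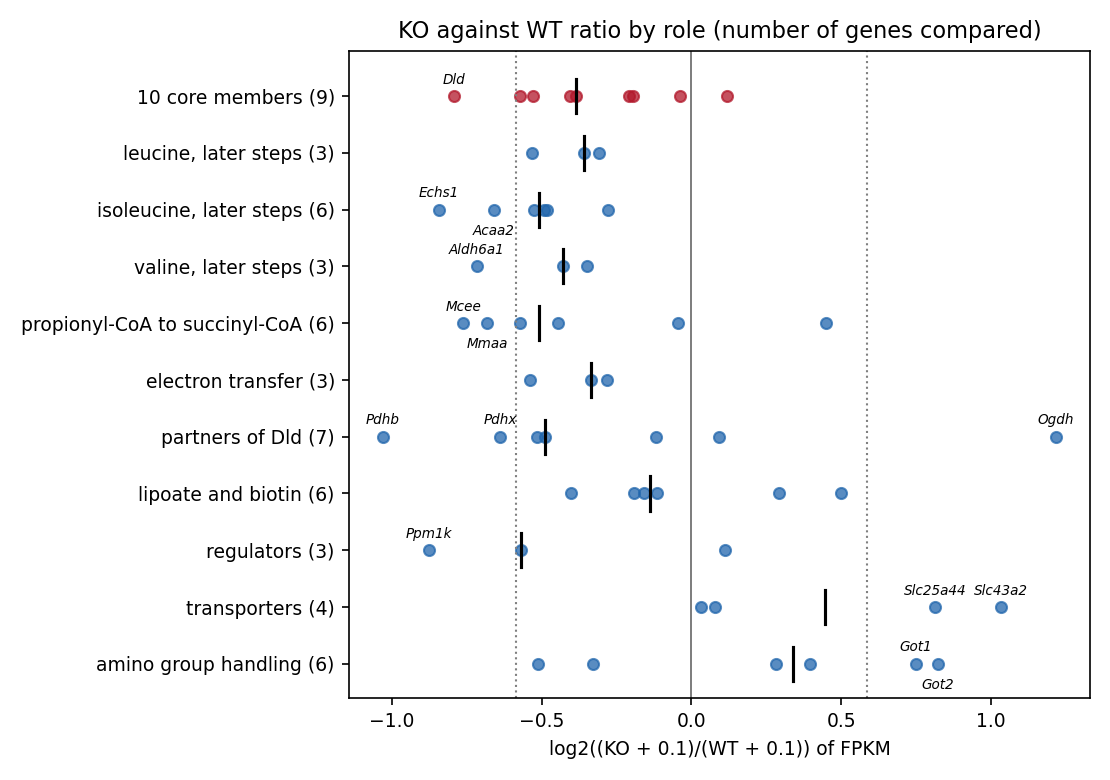
Log2 ratio of Taf7l KO over WT FPKM for every gene compared, by role, with the core genes in red, other pathway genes in blue, list medians as black ticks and dotted lines at 1.5-fold. Most genes of the core and of the later steps lie left of 0, while transporters, with a median of 0.45, and amino group genes, with a median of 0.34, lie mostly right of it.

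The regulators of BCKDH differed from each other as deposited. Bckdk encodes the kinase that switches E1 off by phosphorylation, and Ppm1k the phosphatase that switches it on. Bckdk was at 43.6 FPKM in Taf7l KO BAT and 40.4 FPKM in WT BAT, a fold of 1.08 (1.03 to 1.13). Ppm1k was at 3.06 FPKM in Taf7l KO BAT and 5.70 FPKM in WT BAT, a fold of 0.536 (0.491 to 0.587). The level of kinase over phosphatase transcript as deposited was thus 14.2 in Taf7l KO BAT and 7.08 in WT BAT. Ppm1k has a low GC content, 39.9%, and after the correction its log2 ratio was -0.30, against -0.88 as deposited. Bckdk was then at -0.10, against 0.11. Both genes were lower after the correction and nearer each other, so the size of the difference in this ratio turns with it. Klf15, a transcription factor known to raise genes of this pathway in muscle and liver, was at 19.8 FPKM in Taf7l KO BAT and 29.5 FPKM in WT BAT (log2 ratio -0.57, corrected -0.79).

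Transport genes lay on the higher side. Slc25a44, the mitochondrial carrier for branched-chain amino acids known from brown fat, was at 20.9 FPKM in Taf7l KO BAT and 11.9 FPKM in WT BAT, a fold of 1.76 (1.65 to 1.88). Slc43a2, a plasma membrane carrier for large neutral amino acids, was at 5.23 FPKM in Taf7l KO BAT and 2.51 FPKM in WT BAT, a fold of 2.09 (1.89 to 2.32). After the correction both were at a log2 ratio of 0.55, under 1.5-fold. All 4 transport genes compared were higher by any amount (50.8% of all genes), though Slc3a2 at -0.16 and Slc43a1 at -0.095 were lower after the correction. Slc7a5 was below 1 FPKM in both libraries. Slc25a44 stood at 0.251 of the level of Bcat2 in Taf7l KO BAT and 0.123 in WT BAT (0.075 and 0.037 with the highest row of each), so the carrier and the transaminase it feeds differed in opposite directions.

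Genes for the fate of the amino group, which glutamate takes from the BCAT reaction, had a median log2 ratio of 0.34. The aspartate aminotransferase gene of the cytosol, Got1, was at 14.3 FPKM in Taf7l KO BAT and 8.49 FPKM in WT BAT (log2 ratio 0.75, corrected 0.69). The mitochondrial one, Got2, was at 10.5 FPKM in Taf7l KO BAT and 5.89 FPKM in WT BAT (log2 ratio 0.82, corrected 0.61). Of the 6 genes 4 were higher by any amount (50.8% of all genes). The other ones, Gpt (log2 ratio -0.51, corrected -0.73, past 1.5-fold) and Glud1 (log2 ratio -0.33, corrected -0.30), were lower. Across the 51 pathway genes described beyond the core, 47 were compared, and their median log2 ratio was -0.33. At 1.5-fold or more 8 were lower (12.7% of all genes) and 5 higher (16.5%).

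Dld is shared by several complexes, so its partners were set beside it. It serves pyruvate dehydrogenase (PDH), 2-oxoglutarate dehydrogenase (OGDH) and the glycine cleavage system as well as BCKDH. In PDH, Pdhb, the E1 beta gene, was at 467 FPKM in Taf7l KO BAT and 953 FPKM in WT BAT, a fold of 0.490 (0.483 to 0.497) and a corrected log2 ratio of -0.83. Pdhx, the protein that binds E3 to PDH, was at 52.7 FPKM in Taf7l KO BAT and 82.1 FPKM in WT BAT, a fold of 0.642 (0.608 to 0.679) and a corrected log2 ratio of -0.42, under 1.5-fold. All 4 PDH genes listed were lower (49.2% of all genes compared), and Dld lay within their range of folds as deposited. After the correction Dld did not, as they ran from -0.83 to -0.30 and Dld was at -0.29. In OGDH, Ogdh, its E1, was at 231 FPKM in Taf7l KO BAT and 99.4 FPKM in WT BAT, a fold of 2.33 (2.26 to 2.39) and a corrected log2 ratio of 0.96. Its 5 rows each held 19.8% to 20.3% of its FPKM in both libraries, so their nearly equal folds are not separate measures. Dlst, its E2, was at 397 FPKM in Taf7l KO BAT and 372 FPKM in WT BAT, a fold of 1.07 (1.05 to 1.08) and a corrected log2 ratio of 0.0090. Ogdh over Dlst was therefore 0.583 in Taf7l KO BAT and 0.267 in WT BAT (0.155 and 0.070 with the highest row of each), while in PDH Pdha1 over Dlat was 3.87 in Taf7l KO BAT and 3.94 in WT BAT. All E1 and E2 genes listed for PDH were thus lower in Taf7l KO BAT, as deposited and after the correction. Those of BCKDH were lower as deposited, but Bckdhb and Dbt were not after the correction. Both listed for OGDH were higher as deposited (50.8% of all genes), but Dlst was at 0.0090 after the correction. The 6 genes for lipoate and biotin, the cofactors of Dbt and of the carboxylases, had a median log2 ratio of -0.14. None was at least 1.5-fold lower (12.7% of all genes) or higher (16.5%).

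**Figure D4:**
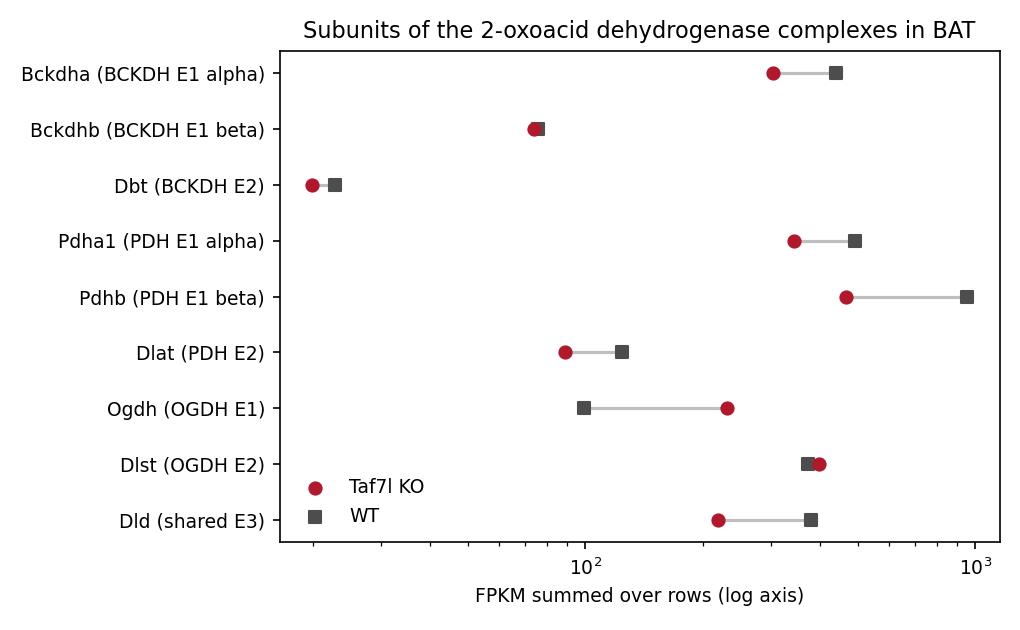
FPKM (log axis) of the E1 and E2 genes of BCKDH, PDH and OGDH and of Dld, their shared E3, with Taf7l KO as red circles and WT as grey squares, 1 pooled library each. PDH genes and Dld lie to the left in Taf7l KO BAT, Ogdh lies to the right at 231 FPKM against 99.4 FPKM in WT BAT, and Bckdhb, Dbt and Dlst lie close together.

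The summed fold of the 10 genes was 0.715, beside 0.468 for the brown adipocyte markers, 0.627 for the general adipocyte markers and 17.3 for the muscle markers. The sum of the 10 genes was mostly Bckdha, Dld and Hibadh, which had their lowest folds, at 0.692, 0.577 and 0.673. Within each adipocyte list the folds ran widely, with 0.441 for Ucp1, 0.421 for Cox7a1 and 1.54 for Prdm16 among the brown adipocyte markers and with 0.545 for Fabp4 and 1.501 for Lipe among the general ones. The folds of the 9 breakdown genes compared, 0.577 for Dld to 1.09 for Ivd, lay inside the ranges of both lists.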

How the data were processed

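The authors mapped 50 bp single-end reads with TopHat and deposited cufflinks FPKM, 1 value per UCSC transcript (55350 rows) and library. They limited the likelihood iterations of cufflinks to 1. Rows of a gene can share reads, so rows that go the same way are not separate measures. Ratios of highest rows also depend on how many rows each gene has. The build named is mm10, but only 314 of 7067 genes with 1 row start within 1000 bp of their GRCm38 start, so table positions were not used and positions are from GENCODE M21. Rows of a gene name were added up and compared here with Python 3.11.15, pandas 2.3.3, numpy 2.4.6 and scipy 1.17.1, and drawn with matplotlib 3.10.9. Genes were compared at 1 FPKM or more in either library as log2 ratios with a pseudocount of 0.1 FPKM, which understates changes of low genes. Genes past 1.5-fold, 3-fold and a log2 ratio of 0.32 were counted. No test was run, with 1 library per genotype.

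Depth was estimated from 1-exon, 1-row genes whose low FPKM fall on whole reads: 79.2% of 53 low values in Taf7l KO and 76.6% of 77 in WT came within 0.05 of a whole number. The Taf7l KO estimate is above the read number in the labels. If it is too high, the Taf7l KO read counts given here are too high and the intervals too narrow. Read counts and intervals use the shortest transcript length that matches.

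The correction for GC content and length is a quadratic fit over the 10414 genes (85.6%) with both values. Its length match was changed, from the highest row to the widest, after first results were seen. It leaves medians of 0.047 and 0.015 in the 25% of genes lowest and the 25% highest in GC content. Calls of known folds and the removal of a linear trend with GC content were tried on simulated data. The depth estimate, the intervals and the length match were not. Whether the correction also removes real differences that run with GC content was not tested.

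The breakdown genes, pathway lists and marker lists were chosen with earlier results of these data known, and 1 gene of the pathway lists is not reported here. Named were all core genes, other pathway genes at least 1.5-fold either way, Bckdk, Ppm1k, Slc25a44, Klf15 and Auh, and the markers Acta1, Ckm, Ucp1 and Adipoq, with Taf7l. The further genes Mmab, Pcca, Etfa, Hadha, Glud1, Gpt, Slc3a2, Slc43a1, Dlst, Pdha1, Dlat, Fabp4, Lipe, Cox7a1, Prdm16 and B3gnt8 were named after their values were seen. Lipt2 and Gpt were found under older names. The summed FPKM of the other marker lists in Taf7l KO and WT BAT were 119 and 107 for white adipocyte, 123 and 104 for endothelial, 115 and 140 for macrophage, 175 and 205 for fibroblast, 22.3 and 29.8 for Schwann and 2.38 and 2.76 for lymphocyte markers.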

Additional observations from a re-analysis of the deposited data

How the results depend on the processing

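Over the alternatives (pseudocounts of 0.01 and 1 FPKM, no filter or 10 FPKM, median and upper-quartile scaling, single rows, short rows left out, and the correction for GC content and length), the median log2 ratio of the breakdown genes stayed between -0.41 and -0.30. Of the genes compared, Bcat2, Bckdha, Dld, Mccc1, Mccc2 and Hibadh were lower under all 10 settings, while Bckdhb, Dbt and Ivd turned with the correction, to 0.055, 0.23 and -0.021. Dld was at least 1.5-fold lower under 9 of 10 settings, the exception being the correction, under which Bckdha was instead. Upper-quartile scaling gave 2 breakdown genes at least 1.5-fold lower (13.6% of all genes), with Hibadh added. At 3-fold 0 were lower (0.403% of all genes), and at a log2 ratio of 0.32 or more 5 were lower (26.5%). The highest single row of Mccc1 gave a log2 ratio of -0.49.

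For the pathway genes beyond the core, the correction gave a median of -0.21. At least 1.5-fold, 6 of 47 were then lower (717 of all 10414 genes with a corrected value) and 3 higher (1114 of these 10414). At 3-fold 0 were lower (0.403% of all genes) and 0 higher (2.05%). At a log2 ratio of 0.32 either way 25 were lower (26.5% of all genes) and 8 higher (29.6%). The cause of these differences was not tested. No paired analysis was possible because each genotype has a single library, and no library could be left out. Depth limits Bcat1, from 28 reads and 7 reads, and the spread between pools is unknown for every gene.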
